A study of Rattus norvegicus with 27 samples.

Results

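The nuclear-encoded subunits of the mitochondrial respiratory chain were measured in the hippocampus of rats with or without brain ischemia. Members were the genes whose single symbol in the array annotation begins with Nduf followed by a, b, c, s or v and a digit, is Sdha, Sdhb, Sdhc or Sdhd, begins with Uqcr or Atp5, or begins with Cox and a digit from 4 to 8. Each gene was read from its brightest probe set. The rule found 90 genes among 18166 with a symbol of their own. By symbol, 39 belonged to complex I, 4 to complex II, 9 to complex III, 18 to complex IV and 20 to complex V. Ndufa4, which is now placed in complex IV, was counted under I by its symbol. Of all members, 82 were bright enough to be tested, and 8 were not (Atp5mgl4, Cox7b2, Cox8b, Cox8c, Ndufa4l2, Ndufb11b, Ndufb4l1 and Uqcr11l1). The tested members were 70 genes with an ordinary symbol, 4 with a pseudogene symbol and 8 further copies by symbol. Of these copies, Atp5hl1 is annotated as a pseudogene and Atp5mgl1 as a long noncoding RNA. A probe set may not separate the short transcripts of pseudogenes and copies from those of the parent gene.

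All animals were male Long Evans rats. Controls (NIC, non-ischemic control) were compared with rats whose whole brain was made ischemic at normal temperature for 10 min, by closing both carotid arteries and lowering blood pressure by bleeding, and then reperfused for 8 h (8R). The CA1 and CA3 regions were dissected, and the tissue of 5 rats was pooled for each array. Part of a post-mitochondrial supernatant gave total RNA, and the rest was spun over a sucrose pad to pellet polysome RNA, so each pool could give 4 arrays. The 27 arrays formed 8 groups, with 3 arrays in each NIC group, 3 in 8R CA1 polysome RNA and 4 in each of the other 8R groups. The age of the rats is not given in the sources used here, and no other time of reperfusion is analysed here.

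The respiratory chain of the inner mitochondrial membrane passes electrons from NADH through complex I, or from succinate through complex II, to ubiquinone, then through complex III and cytochrome c to complex IV, which reduces oxygen. Complexes I, III and IV pump protons, and complex V uses the returning protons to make ATP. Most subunits are encoded in the nucleus, translated on cytosolic ribosomes and imported. In hippocampal neurons this chain supplies most of the ATP, and it stops when blood flow stops. CA1 pyramidal neurons are known to die days after brief global ischemia that CA3 neurons survive.

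Promoters of respiratory chain genes are known for sites of NRF1, of ETS-family factors such as GABP, and of YY1. RefSeq promoters (GRCr8, 250 bases before to 50 after each gene's start) were matched by gene identifier for 73 of the 90 members. The NRF1 letters (GCGC, any base, then TGCGC), sought like the others on both strands, were present in 12 of these 73 promoters (16.4%) and in 4.71% of all 27457 promoters. The ETS letters CCGGAAG were present in 19 (26%) and in 9.22% of all. The YY1 letters AAGATGGC were present in 15 (20.5%) and in 3.44% of all. The stretches below are from 4 members described later, of which Sdha and Ndufs5 were higher in polysome than in total control RNA, and Atp5me and Cox8a lower. Capitals mark the NRF1 letters in the first 3, read on the other strand in Sdha and Ndufs5 and on both strands in Atp5me. In Cox8a they mark the ETS letters, read on the other strand.

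Sdha, chr1:30764439-30764498, plus strand: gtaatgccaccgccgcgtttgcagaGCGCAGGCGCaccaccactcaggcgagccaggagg

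Ndufs5, chr5:141264497-141264556, minus strand: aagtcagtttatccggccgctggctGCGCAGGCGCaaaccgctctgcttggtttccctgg

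Atp5me, chr14:1464759-1464818, plus strand: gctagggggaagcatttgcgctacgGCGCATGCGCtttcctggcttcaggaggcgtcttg

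Cox8a, chr1:213833646-213833705, minus strand: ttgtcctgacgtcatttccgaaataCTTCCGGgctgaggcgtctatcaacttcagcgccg

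The NRF1 letters thus stood in promoters of members on both sides of that difference. A match describes these letters only. The next counts cover tested members with an ordinary symbol and a promoter. The NRF1 letters were in 0 of the 18 that rose in CA1 total RNA after reperfusion and in 12 of the other 44 (27.3%). For the ETS letters these counts were 4 of 18 (22.2%) and 15 of 44 (34.1%), and for the YY1 letters 3 of 18 (16.7%) and 11 of 44 (25%). This split was chosen after the values were seen and was not tested.

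Values are linear probe set intensities. Median intensity per array ran from 25.6 to 38.1. Differences are on the scale of log2(intensity + 16), with the standard error (SE) of 1 limma fit to all 27 arrays, and a member was called at a Benjamini-Hochberg adjusted p under 0.05 over the 12716 genes tested. In this fit the adjusted p-values measure the spread between arrays of a group, each from a different pool. All 27 arrays are treated as independent, although a pool gave arrays to several groups. In fits with pool as a fixed block, they measure the spread left after an effect of each pool is removed. Every array received label made from an equal mass of RNA. A difference is therefore one in the share of that RNA, and fewer cells of a type cannot be told apart from less RNA per cell. Between control regions, 5 of 8 CA1 pyramidal markers were higher in CA1 total RNA and none lower, and 2 of 9 CA3 pyramidal markers were lower and none higher. The 4 arrays of the 8R pool numbered 4 stood apart from the other 8R arrays in the members' values, and results that rest on them are given with and without them.

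In control hippocampus, transcripts of Sdha, Sdhb, the large subunits of complex III, Atp5f1a and Atp5f1b were higher in polysome than in total RNA. Several small subunits of complexes III, IV and V were lower. In NIC CA1, 18 of the 82 members were higher in polysome RNA and 13 lower, where 39.4% of all genes tested were higher and 4.62% lower. In NIC CA3, 12 were higher and 30 lower, against 21.5% and 16.9% of all genes. The median member differed by -0.01 in CA1 and -0.24 in CA3, and the median gene by 0.20 and 0.00. All 12 members higher in CA3 were also higher in CA1, all 13 lower in CA1 were also lower in CA3, and none was called in opposite directions. With quantile normalization the split was 10 higher and 29 lower in CA1, and 12 and 34 in CA3, with the median gene of CA1 at 0.04 and the median member at -0.25. These counts stood against 22.5% higher and 11.8% lower of all genes in CA1 and 24.7% and 12.5% in CA3. With the pool number as a block, 21 were higher and 20 lower in CA1 (44.6% and 6.76% of all genes), and 14 and 41 in CA3 (27.4% and 22.3%). The polysome arrays lay above all total arrays for 23 members and below for 15 in CA1, against 49.3% and 8.26% of all genes, and for 15 and 45 in CA3, against 31.1% and 25.7%.

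Ndufs1 holds iron-sulfur clusters of complex I. It gave 244.8, 226.1 and 266.0 in the 3 NIC CA1 total arrays and 538.7, 494.6 and 473.2 in the 3 polysome arrays. The groups lay far apart, and the difference was 0.99 ± 0.14 (SE, limma adjusted p = 2.07e-06), or 1.98-fold. In CA3, where total arrays gave 268.1, 313.4 and 321.5 and polysome arrays 463.0, 487.1 and 483.2, it was 0.64 ± 0.14 (limma adjusted p = 0.000712). Ndufv1, which binds NADH, differed by 0.86 ± 0.14 in CA1 and 0.70 ± 0.14 in CA3. Grouped by role, with roles assigned after the values were seen, 4 of the 6 tested core subunits of complex I were higher in CA1 and 2 in CA3, and none was lower. Of its 25 supernumerary subunits, which surround the core and carry no redox group, 3 were higher and 4 lower in CA1, and 2 higher and 10 lower in CA3. Ndufc1, a supernumerary subunit of the membrane arm, was lower in CA3 (-0.83 ± 0.13, limma adjusted p = 2.68e-05).

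Complex II has no small supernumerary subunits and no mitochondrially encoded one. Its flavoprotein Sdha gave 478.2, 410.5 and 467.0 in NIC CA1 total RNA and 803.0, 781.6 and 816.6 in polysome RNA, with no overlap (0.81 ± 0.14, limma adjusted p = 2.97e-05). The CA3 arrays gave 521.2, 523.9 and 531.5 against 842.0, 803.9 and 818.1 (0.63 ± 0.14, limma adjusted p = 0.000925). The iron-sulfur subunit Sdhb was higher by 0.53 in CA1 and 0.49 in CA3. The membrane anchor Sdhc was higher in CA1 (0.405), its CA3 value of 0.12 was not called, and the other anchor Sdhd was not called in either region (0.19 and 0.14).

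Complex III divided in the same manner. All 3 tested large subunits, the core proteins Uqcrc1 and Uqcrc2 and the Rieske iron-sulfur protein Uqcrfs1, were higher in polysome RNA of both regions. For Uqcrfs1 the total arrays of NIC CA1 read 120.2, 108.2 and 126.5 and the polysome arrays 199.3, 220.3 and 228.8 (0.79 ± 0.17, limma adjusted p = 0.000312). None of the 4 small subunits was higher, and 1 in CA1 and 3 in CA3 were lower. Uqcrh, the acidic hinge protein, differed by -0.54 ± 0.13 in CA1 and -0.85 ± 0.13 in CA3.

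Of the 15 members of complex IV, 3 in CA1 and 8 in CA3 were lower in polysome RNA and none was called higher. In CA1 the polysome arrays lay above all total arrays for 3 of them. Cox5a, at 0.29 in CA1, was called higher with pool as a block (limma adjusted p = 0.00187) and, together with Cox7b (0.24), without the 8R arrays of pool 4. Its 3 largest subunits, which hold the catalytic center, are encoded in mitochondrial DNA and are not members. The small membrane subunit Cox8a gave 953.9, 985.2 and 980.6 in NIC CA1 total RNA and 496.8, 442.0 and 539.8 in polysome RNA. In CA3 it gave 1071, 983.0 and 1060 against 480.2, 506.4 and 512.5. Neither region's groups overlapped, and Cox8a was lower in polysome RNA by 1.95-fold in CA1 and 2.04-fold in CA3 (limma adjusted p = 2.21e-08 and 3.98e-09). Cox6a1 differed by -0.57 ± 0.09 in CA1 and -0.67 ± 0.09 in CA3. Cox4i1, the most widely used isoform of subunit 4, was not called (-0.06 in CA1 and -0.14 in CA3).

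In complex V, 2 of 3 tested subunits of the catalytic head differed in direction from most of the small membrane subunits. The head subunits Atp5f1a and Atp5f1b, which form the nucleotide-binding ring, were higher in polysome RNA by 0.68 ± 0.11 and 0.58 ± 0.08 in CA1 and by 0.495 ± 0.11 and 0.34 ± 0.08 in CA3. Atp5f1b gave 1019, 973.2 and 994.7 in NIC CA1 total RNA and 1556, 1478 and 1453 in polysome RNA. The other tested head subunit, Atp5f1d, was not called (-0.045 in CA1 and -0.16 in CA3). Of 4 small membrane subunits, 3 were lower in each region. For Atp5me the total arrays of NIC CA3 read 258.8, 253.9 and 268.0 and the polysome arrays 116.9, 115.4 and 109.9, 2.12-fold apart (-1.09 ± 0.16, limma adjusted p = 7.57e-06). Atp5mk was lower by 1.87-fold in CA1 and 2.21-fold in CA3. Atp5mc1, 1 of 3 genes for the proton-carrying c subunit, was lower (-0.49 and -0.73), while Atp5mc3, another of the 3, was higher in CA1 (0.40). The call of Atp5mk in CA1 was lost without polysome replicate 2 (limma adjusted p = 0.0663), and that of the stalk subunit Atp5pb in CA3, at 0.50, without polysome replicate 1 or 2 or total replicate 2 (limma adjusted p from 0.0505 to 0.0766).

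**Figure D1:**
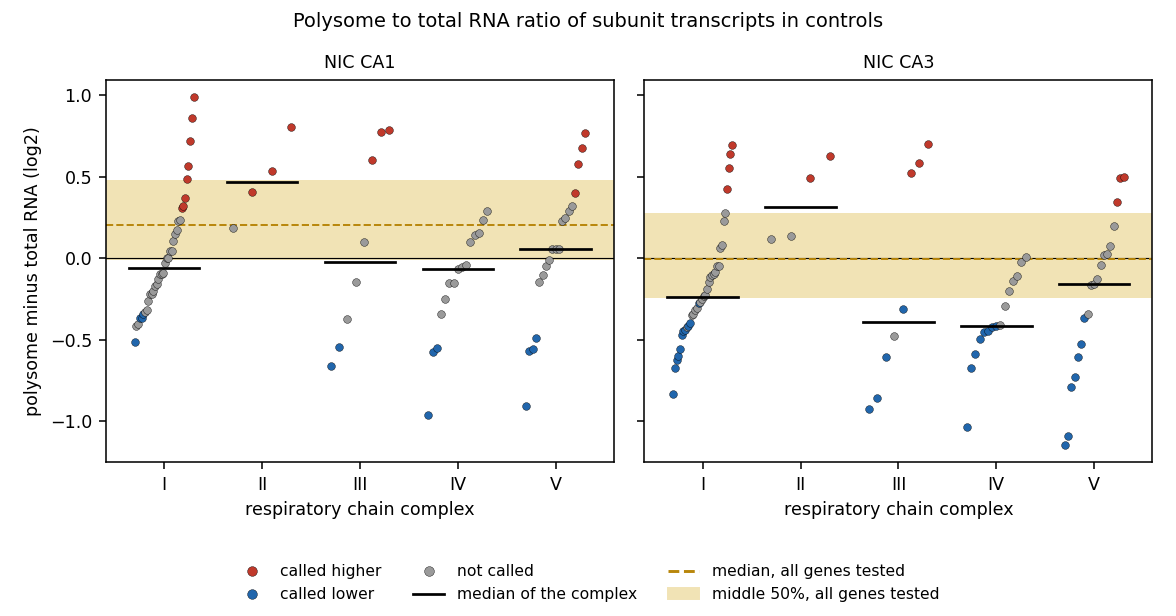
Log2 difference of polysome against total RNA (vertical axis) in control CA1 and CA3 for each tested member (points), by complex (horizontal axis). Red and blue mark called members, black bars the median of a complex, and the dashed line and band the median and middle 50% of all genes tested. Members of complex II lie above 0, the highest of all is Ndufs1 at 0.99 in CA1, and the lowest are Atp5mk and Atp5me below -1 in CA3.

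The polysome pellet was not resolved by the number of ribosomes on a transcript, and transcript length was not tested here. The 3 mitochondrially encoded subunit genes measured, COX1, COX2 and COX3, which cytosolic ribosomes do not translate, were lower in polysome RNA of CA1 (-1.91, -2.31 and -1.74).

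Between regions, members were mostly at lower values in CA1 than in CA3 total RNA of controls. Of 82 members, 74 had a negative difference, with a median of -0.21 where the median gene was at 0.00, and all 3 CA1 arrays lay below all 3 CA3 arrays for 43. The arrays were separate in the other direction for 1. For all genes these shares were 11.1% and 15%. The call was reached by 4 members, all lower in CA1, where 1.06% of all genes were called lower and 2.41% higher. Atp5pf, a stalk subunit of complex V, gave 234.6, 195.4 and 251.6 in CA1 and 352.1, 289.9 and 358.3 in CA3 (-0.52 ± 0.11, limma adjusted p = 0.00273). Atp5if1, the inhibitor of complex V during ATP hydrolysis, gave 302.9, 224.5 and 292.5 against 437.7, 342.0 and 399.1 (-0.50 ± 0.13, limma adjusted p = 0.0204). Both sets of arrays were separate. Atp5me (-0.55 ± 0.16, limma adjusted p = 0.046) and the complex I subunit Ndufv2 (-0.455 ± 0.13, limma adjusted p = 0.0403) were also lower. Atp5pf kept its call with each array left out. That of Atp5me was lost without any array but CA1 replicate 3, and that of Ndufv2 without any but CA3 replicate 2 (limma adjusted p from 0.0543 to 0.261). The 4 calls became 2 without CA1 replicate 1, and 1 without CA1 replicate 2 or CA3 replicate 1 or 3.

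The pool number as a block gave all arrays of a pool a shared effect. With it, 25 members were lower in CA1 and none higher, against 3.52% and 5.67% of all genes. They held 11 members of complex V, among them Atp5f1a (-0.19) and Atp5f1b (-0.28), and the complex I core subunits Ndufs1 (-0.28) and Ndufv1 (-0.235). A fit to the NIC total arrays alone also called 25 lower (3.56% of all genes), and one without the 8R arrays of pool 4 called 23 lower (3.22%). In polysome RNA of controls the direction depended on the scaling. As deposited, the members' median difference was -0.01 with 41 positive, while the median gene was at 0.23, and 27.7% of all genes were called higher and 0.731% lower. The CA1 arrays lay above all CA3 arrays for 6 members and below for 5, against 53.1% and 1.82% of all genes. With the block, 4 were called higher and 2 lower, against 43.1% and 1.12%. With quantile normalization the median member was at -0.20 and the median gene at 0.00, and the block then called 1 member higher and 31 lower, against 6.2% and 4.46% of all genes.

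The 2 members called in polysome RNA between regions were both tissue-restricted isoforms of complex IV subunits, and both were higher in CA1. Cox4i2, a subunit 4 isoform known from lung and from oxygen-sensing cells, gave 81.25, 75.91 and 78.17 in CA1 and 55.00, 52.87 and 48.21 in CA3 (0.47 ± 0.13, limma adjusted p = 0.00968). Cox6b2, known as a testis isoform, gave 37.90, 36.31 and 31.91 against 21.26, 17.53 and 17.75 (0.56 ± 0.12, limma adjusted p = 0.00113). The arrays did not overlap, but neither call held with quantile normalization, at 0.22 and 0.35 (limma adjusted p = 0.429 and 0.0528). With that normalization 6 other members were called and all were lower in CA1 (Ndufs8, Ndufa8, Ndufb9, Sdhb, Uqcrc1 and Atp5f1d), and 2.89% of all genes were higher and 1.81% lower. Of 8 oligodendrocyte markers, all 8 were higher in CA1 in both kinds of RNA, with summed intensities of 2690 to 3220 in CA1 and 1610 to 1930 in CA3 total RNA. None of these markers was at 0 on any array, and their part in the members' differences was not tested.

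After ischemia and 8 h of reperfusion, 59 of the 82 members were not called in total RNA of CA1, and most of those called were higher. Of the 82, 22 rose and 1 fell, against 20.1% and 6.15% of all genes tested, and the share that rose was near that of all genes. The median member was at 0.195 and the median gene at 0.04. By complex, 11 of 36 rose in complex I, 0 of 4 in II, 1 of 8 in III, 6 of 15 in IV and 4 of 19 in V, and the 1 that fell was in complex I. The 8R arrays lay above all NIC arrays for 24 members and below for 3, against 24.5% and 10.1% of all genes. With quantile normalization the counts were 12 higher and 4 lower, against 16% and 13.6% of all genes, with the median member at 0.09 and the median gene at -0.025. The median of complex I was then at 0.06 in place of 0.19, and that of complex III at 0.025 in place of 0.13. Leaving out 1 array changed the 23 calls to 13 (NIC replicate 1), 9 (NIC replicate 2), 9 (8R replicate 1) or 13 (8R replicate 2), and the share of all genes called from 26.3% to 21.7%, 17.4%, 19.9% and 24.2%.

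Uqcrfs1 of complex III had the largest rise. It gave 120.2, 108.2 and 126.5 in the NIC arrays and 205.4, 197.5, 179.1 and 151.4 in the 8R arrays, all above the controls (0.56 ± 0.16, limma adjusted p = 0.00737). In complex I, Ndufb6 of the membrane arm gave 138.2, 112.2 and 143.4 against 224.8, 184.4, 179.0 and 200.7 (0.535 ± 0.12, limma adjusted p = 0.00108). Ndufb9, also of that arm, gave 797.8, 717.3 and 833.0 against 1240, 1066, 989.2 and 1001, again without overlap (0.45 ± 0.09, limma adjusted p = 0.000439). Ndufb8 rose by 0.54 ± 0.17 (limma adjusted p = 0.0192), although its lowest 8R array (258.4) lay within the NIC range of 236.6 to 272.9. Ndufb10, of the same arm, was the 1 member called lower, from 206.6, 215.9 and 214.5 to 159.9, 157.8, 171.2 and 148.5 (-0.38 ± 0.10, limma adjusted p = 0.00349). The calls of Uqcrfs1, Ndufb6 and Ndufb10 held with each of the 7 arrays left out in turn. That of Ndufb8 was lost without NIC replicate 1 or 2 or 8R replicate 1 or 2 (limma adjusted p from 0.0578 to 0.0818).

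In complex IV, Cox7b gave 441.1, 396.7 and 433.0 in NIC and 730.2, 726.8, 644.9 and 465.7 in 8R (0.56 ± 0.19, limma adjusted p = 0.0258). Cox6c gave 251.0, 227.5 and 251.4 against 364.7, 347.4, 338.7 and 286.9 (0.43 ± 0.16, limma adjusted p = 0.0428). The 8R arrays were above the controls for both, with the array of pool 4 the lowest. Cox4i1 rose by 0.40 and Cox6a1 by 0.26, while Cox5a (0.235) and Cox8a (0.17) were not called. In complex V, Atp5f1b gave 1019, 973.2 and 994.7 against 1427, 1293, 1341 and 1253 (0.41 ± 0.08, limma adjusted p = 0.00023), the smallest adjusted p among members in this comparison. Atp5pb of the stalk rose by 0.43 ± 0.16 and the inhibitor Atp5if1 by 0.37 ± 0.12. The call of Atp5f1b held with each array left out, while those of Cox7b, Cox6c and Atp5pb were lost without any 1 of the NIC arrays or of 8R replicates 1 and 2 (limma adjusted p from 0.0506 to 0.149), and the last 2 of these also without 8R replicate 3. Complex II had values of 0.23, 0.22, 0.04 and 0.38 for Sdha, Sdhb, Sdhc and Sdhd, and none was called.

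In CA3 total RNA 5 members rose and none fell, against 14.2% and 1.34% of all genes. The median member was at 0.12 and the median gene at 0.085. Atp5f1b gave 1156, 1200 and 1277 in NIC and 1644, 1652, 1581 and 1335 in 8R (0.35 ± 0.08, limma adjusted p = 0.00278). Ndufv1 gave 317.8, 335.2 and 325.4 against 465.4, 498.6, 483.0 and 348.8 (0.43 ± 0.14, limma adjusted p = 0.0293). Both were above all controls on every array, with pool 4 the lowest. Uqcrfs1 (0.52), Ndufb6 (0.34) and the pseudogene symbol Ndufa13-ps1 (0.34) also rose, and 4 of the 5 were among those that rose in CA1, all but Ndufv1. The 8R arrays lay above all NIC arrays for 10 members and below for 5, against 20.2% and 4.42% of all genes. With pool as a random block 11 members rose, against 15% of all genes. The call of Atp5f1b held with each array left out in turn, whereas Ndufv1 and Ndufb6 were called no longer without any 1 of NIC replicates 1 to 3 or 8R replicates 1 to 3 (limma adjusted p from 0.0604 to 0.286), and Uqcrfs1 without any of these but NIC replicate 1. The number called was 1 or 2 without any 1 of those 6 arrays, where 7.68% to 11.2% of all genes were called, and 18 without 8R replicate 4, where 23.7% were. With quantile normalization 1 rose and 2 fell, against 8.36% and 4.25% of all genes.

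The difference between the CA1 and CA3 responses was called for none of the members in total RNA (0 at an unadjusted p under 0.05 by limma) and for none in polysome RNA (1 at an unadjusted p under 0.05), where 0.0236% and 0.0157% of all genes were called. The larger count in CA1 total RNA is thus not shown to be a difference between regions.

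**Figure D2:**
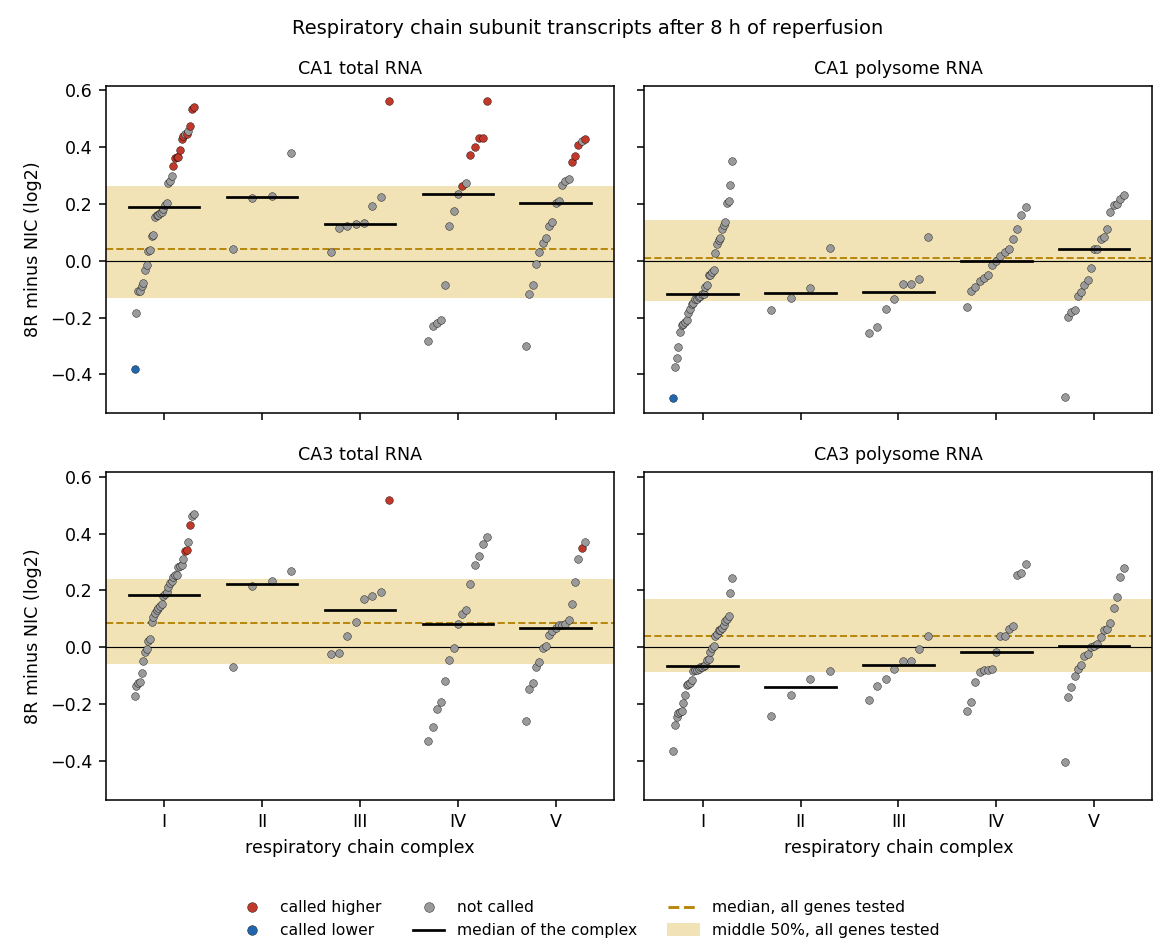
Log2 difference of 8R against NIC (vertical axis) for each tested member (points, red or blue where called), by complex (horizontal axis), in total and polysome RNA of CA1 and CA3. Most members lie above 0 in total RNA, with medians of 0.195 in CA1 and 0.12 in CA3, and around or below 0 in polysome RNA, with medians of -0.07 and -0.06.

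In polysome RNA few members were called. In CA1 none was called higher and 1 lower, against 4.87% and 3.46% of all genes, with a median of -0.07 where the median gene was at 0.01. That 1 was Ndufs4, an accessory subunit of the peripheral arm of complex I, which gave 537.8, 541.4 and 551.1 in NIC and 390.0, 436.9 and 331.6 in 8R (-0.48 ± 0.12, limma adjusted p = 0.0129). Its total RNA gave 439.2, 384.8 and 427.6 against 457.1, 397.3, 460.4 and 398.4, where the groups overlapped. Its polysome call was lost without the 8R array of pool 4 alone (limma adjusted p = 0.11), and 2 members were called lower without 8R replicate 2. In CA3 none was called in either direction by limma (4 at an unadjusted p under 0.05), against 2.38% and 0.275% of all genes, and the median was -0.06. The 8R arrays lay above all NIC arrays for 0 members and below for 4 in CA1, against 13% and 11.2% of all genes, and for 4 and 3 in CA3, against 13.2% and 4.55%. Atp5f1b, which rose in total RNA of both regions, gave 1556, 1478 and 1453 in NIC CA1 polysome RNA and 1661, 1672 and 1520 in 8R, where the groups overlapped.

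These counts depended on pool 4. Its member medians, against the NIC means, were -0.025 in CA1 total, -0.02 in CA3 total, -0.35 in CA1 polysome and -0.27 in CA3 polysome RNA. The other 8R arrays were at 0.21 to 0.31, 0.18 to 0.19, 0.06 to 0.10 and 0.03 to 0.04. Over all genes, the medians of the 4 arrays of pool 4 were 0.04, 0.04, 0.04 and 0.01. Leaving out pool 4 was chosen with results of these data known. Since its arrays were the lowest of each 8R group in the members, this raises the members' medians by itself. The values without it describe that dependence and are no separate support for a rise. Without pool 4, 48 members rose and 2 fell in CA1 total RNA (26.3% and 11% of all genes) and 32 rose and 4 fell in CA3 total RNA (29.2% and 5.1%), with 31 rising in both. By complex, 23 of I, 3 of II, 6 of III, 8 of IV and 8 of V then rose in CA1. In polysome RNA the medians turned positive, at 0.07 in CA1 and 0.04 in CA3. There 5 rose and 1 fell in CA1 (4.9% and 3.96% of all genes), and none was called in CA3. Those that rose in CA1 were Ndufa1 (0.54), Atp5mg (0.53), Atp5mf (0.49), Cox7b (0.41) and Ndufb8 (0.39), and Ndufs4 was still lower (-0.38).

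**Figure D3:**
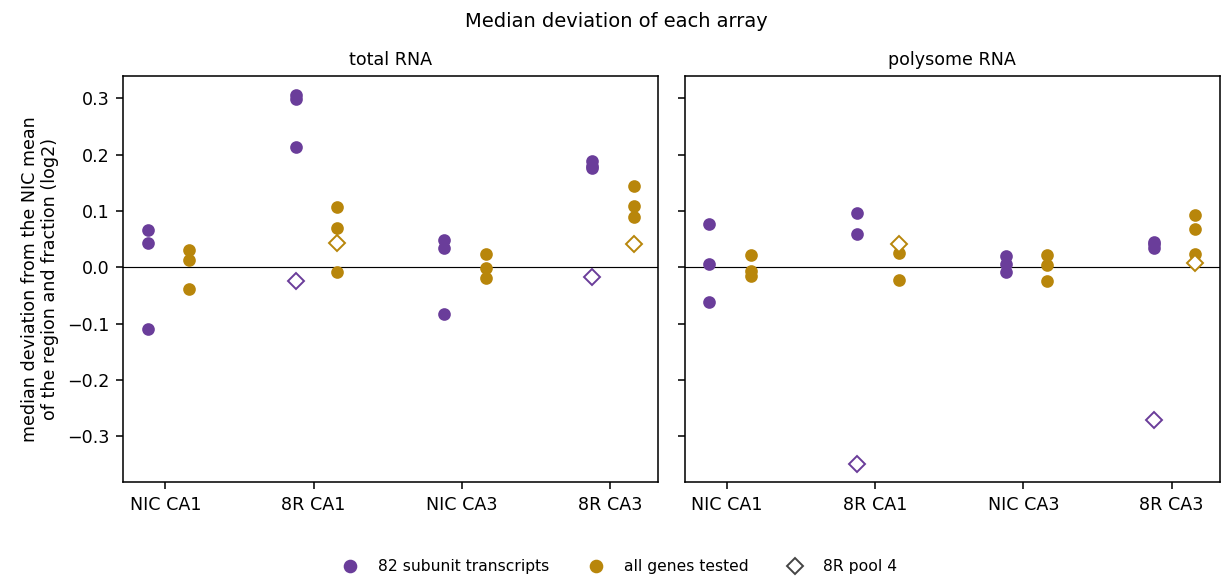
Median over the 82 members (purple) and over all genes tested (gold) of each array's log2 deviation from the control mean of its region and kind of RNA (vertical axis), with 1 point an array. For members, the arrays of pool 4 (open diamonds) are the lowest of each 8R group, at -0.025 and -0.02 in total RNA and -0.35 and -0.27 in polysome RNA.

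The change in the polysome to total ratio asks whether the difference after reperfusion in polysome RNA equalled that in total RNA. With no block, 1 member was called in CA1, Ndufb9 (-0.50 ± 0.13, limma adjusted p = 0.033), where 3.41% of all genes were called lower and 0.409% higher. That call was lost without any 1 of 6 arrays (NIC polysome replicate 1 or 3, NIC total replicate 1 or 2, 8R polysome replicate 3, 8R total replicate 1; limma adjusted p from 0.0503 to 0.126), and 12 members were called without 8R polysome replicate 2, 5 without 8R total replicate 4, and 2 without 8R polysome replicate 1 or 8R total replicate 2. The shares of all genes called were then 7.66%, 5.28%, 3.86% and 4.21%. Ndufb9 also lost its call with quantile normalization (-0.37, limma adjusted p = 0.0761), and Atp5mc1 was then called higher. With arrays shifted to 1 median its limma adjusted p was 0.0537, and with only the groups compared in the fit the limma adjusted p was 0.0828. None was called in CA3 by limma (15 at an unadjusted p under 0.05), against 0.11% and 0.055% of all genes, and 7 were without 8R total replicate 4 (8.05% of all genes). The medians were -0.26 in CA1, where the median gene was at -0.06, and -0.17 in CA3, where it was at -0.07. The fit with pool as a block gave each pool 1 effect, shared by its arrays of both regions and both kinds of RNA. In 8R CA1, 1 total array had no polysome array of its pool, so the fitted change can differ from that of the pool ratios. With this block the ratio fell for 31 members and rose for 1 in CA1, and fell for 23 and rose for 3 in CA3. Of all genes, 14.1% fell and 2.98% rose in CA1, and 11.6% and 4.86% in CA3. The ratio fell in both regions for 19 members, and Atp5mc1 rose in both.

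By complex, the blocked ratio in CA1 fell for 15 members of I, 2 of II, 4 of III, 5 of IV and 5 of V, and in CA3 for 12, 3, 3, 3 and 2. The control arrays enter both this change and the control difference of polysome against total RNA, so the 2 are not independent. Sdha stood at 0.73, 0.90 and 0.785 in the 3 NIC CA1 pools (log2 of polysome over total) and at 0.32, 0.39 and 0.45 in the 3 8R pools. The change was -0.37 ± 0.10 (limma with the block, adjusted p = 0.0131), and -0.38 ± 0.10 in CA3 (limma with the block, adjusted p = 0.0109). Uqcrfs1 stood at 0.56, 0.83 and 0.71 in NIC CA3 and at 0.17, 0.05, 0.00 and 0.21 in 8R CA3 (-0.60 ± 0.13, limma with the block, adjusted p = 0.00341). The pools of each did not overlap between conditions.

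Ndufs5, a complex I subunit of the intermembrane space side that is named here after its values were seen, had the largest fall of any member in this fit in both regions. In CA1 its total RNA was 163.0, 146.4 and 170.6 in NIC and 265.8, 251.5, 228.9 and 167.2 in 8R, and its polysome RNA 226.7, 277.8 and 324.9 against 244.7, 241.2 and 150.7. Its log2 ratio went from 0.44, 0.855 and 0.87 to -0.11, 0.07 and -0.14 in CA1 (-0.77 ± 0.16, limma with the block, adjusted p = 0.0016). In CA3 it went from 0.30, 0.81 and 0.55 to -0.255, 0.07, -0.01 and -0.55 (-0.74 ± 0.155, limma with the block, adjusted p = 0.00312). The pools were separate in both regions, and without the block the limma adjusted p was 0.0679 in CA1 and 0.129 in CA3. Ndufb9 went from -0.36, -0.32 and -0.33 to -0.905, -0.69 and -0.91 in CA1.

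Among the other falls, the stalk subunit Atp5pb changed by -0.58 ± 0.10 in CA1 and -0.45 ± 0.10 in CA3 (limma with the block, adjusted p = 0.000407 and 0.00376). Cox6c changed by -0.49 and -0.59, and Ndufv1 by -0.49 in CA3. Atp5mc1 went the other way, from -0.57, -0.275 and -0.62 to 0.12, 0.05 and -0.29 in CA1, where the pools overlapped, and from -0.66, -0.86 and -0.665 to -0.26, -0.28, -0.36 and -0.28 in CA3, where they did not (0.50 and 0.43, limma with the block, adjusted p = 0.013 and 0.0275). Cox6b2 (0.51) and Cox4i2 (0.45) also rose in CA3. Cox8a, the member furthest below 0 in control CA1, kept ratios of -1.09, -0.79 and -1.075 in 8R CA1 against -0.92, -1.13 and -0.84 in NIC, and was not called. The 8R pools lay below all NIC pools for 35 members in CA1 and 30 in CA3, against 29.2% and 21.5% of all genes, and above for 1 and 3, against 9.19% and 9.79%.

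The blocked counts changed with scaling and with pool 4. With quantile normalization and the block, the ratio fell for 13 members in CA1 and 8 in CA3, with 3 in common (Ndufs5, Atp5pb and Cox6c), against 8.59% and 6.4% of all genes. Without pool 4 and with the block it fell for 18 and 19, with 10 in common, against 9.66% and 10.8%. In both of these fits Ndufs5 and Atp5pb were called lower and Atp5mc1 higher in both regions. Ndufs5 was at -0.61 and -0.57 in the first and at -0.73 and -0.62 in the second. Sdha in CA1 was not called with quantile normalization (-0.205, limma with the block, adjusted p = 0.0707) and was called without pool 4.

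**Figure D4:**
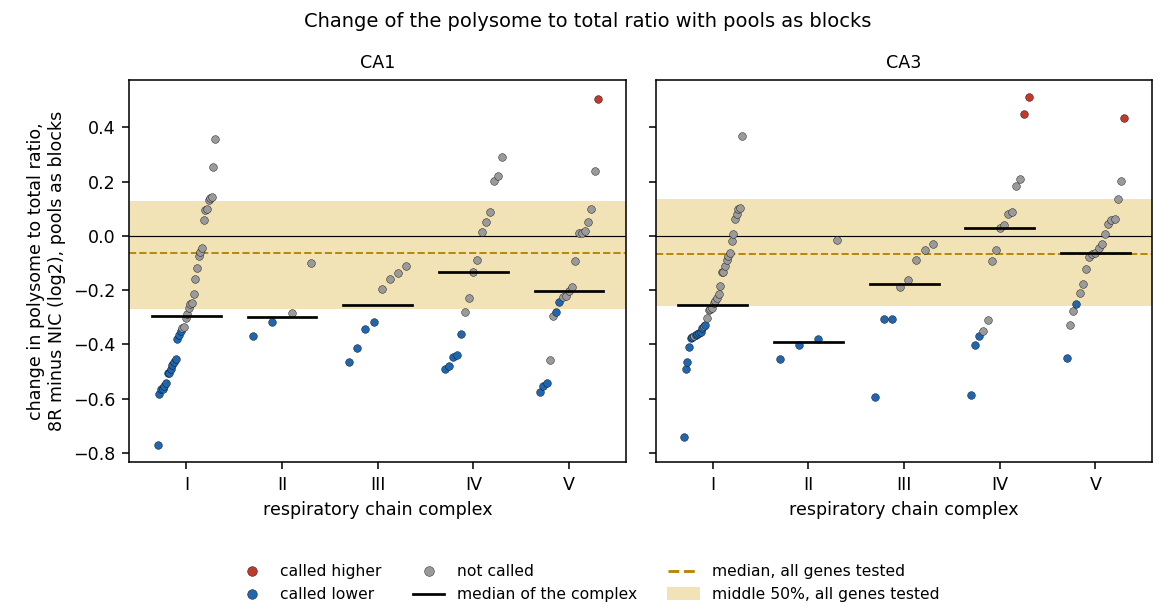
Change in the log2 polysome to total ratio after reperfusion (vertical axis) for each tested member (points, red or blue where called) by complex (horizontal axis), in CA1 and CA3, from the fit with pool as a block. Ndufs5 lies lowest in both (-0.77 and -0.74), and Atp5mc1 is called higher in both (0.50 and 0.43).

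**Figure D5:**
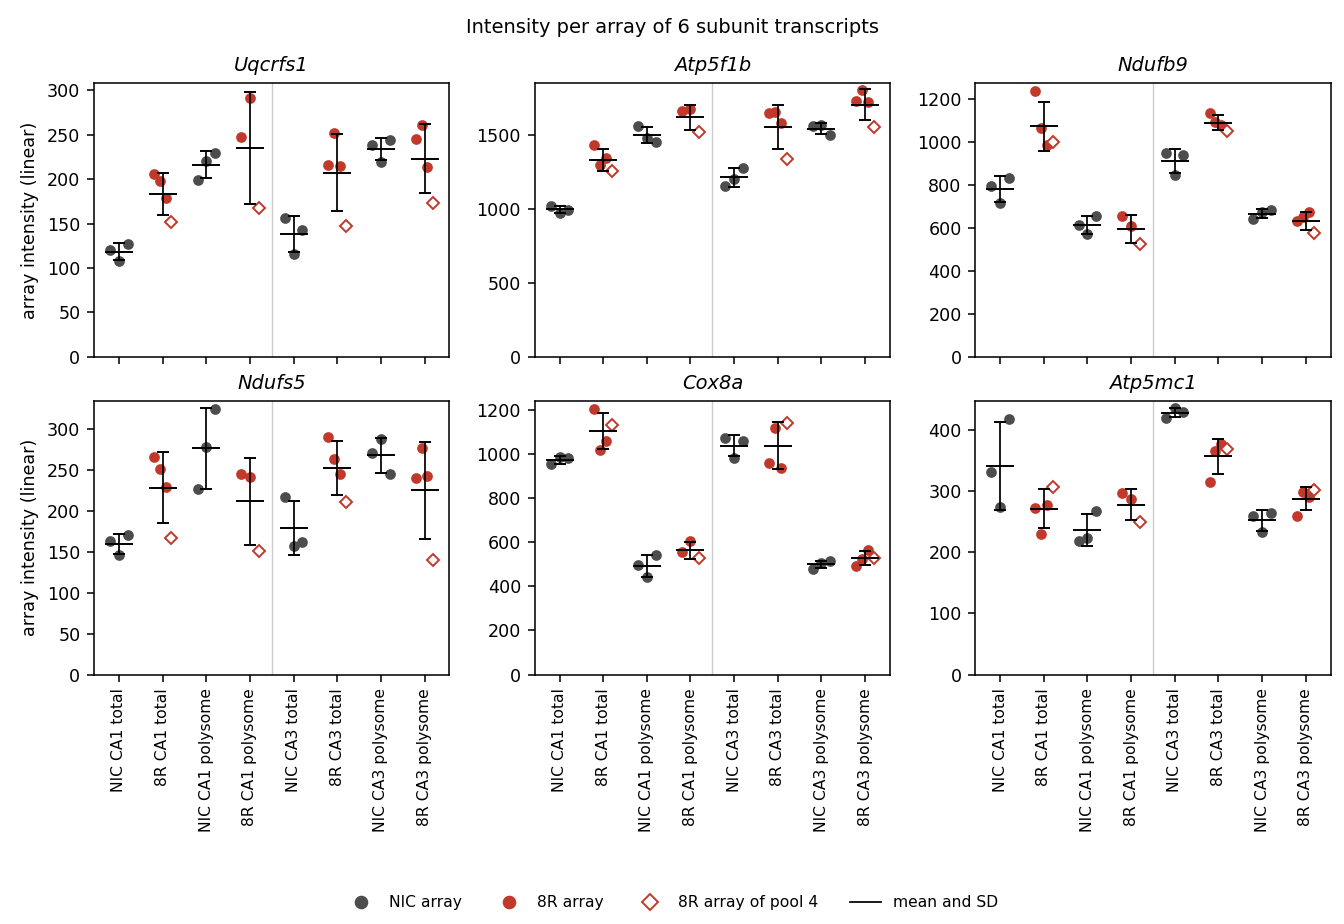
Intensity on every array of Uqcrfs1, Atp5f1b, Ndufb9, Ndufs5, Cox8a and Atp5mc1 in the 8 groups, with each array as a point, the pool 4 arrays as open diamonds, and bars for the mean and SD. Uqcrfs1 in CA1 total RNA rose from 108.2 to 126.5 in controls to 151.4 to 205.4 after reperfusion, while its polysome values overlapped.

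Genes that serve the chain were described from lists. In CA1 total RNA after reperfusion, where 20.1% of all genes rose and 6.15% fell, 15 of 43 assembly factors rose and 1 fell, among them Ndufaf5 (0.81), which modifies a core subunit of complex I, and the copper chaperone Sco1 of complex IV (0.61), while the complex IV factor Pet100 fell by 0.685 on the log2 scale. Of 17 electron carriers and their enzymes 6 rose and none fell, among them cytochrome c, Cycs (0.63), and the flavoprotein Etfa (0.65). Of 14 regulators of mitochondrial biogenesis 4 rose, with Gabpa, which encodes the DNA-binding chain of GABP, at 1.14 and Tfam, the packaging factor of mitochondrial DNA, at 0.67. Of 16 citric acid cycle genes 4 rose, a share near that of all genes, as it was for the regulators, with Dld, a shared dehydrogenase chain, at 0.79. None of 3 mitochondrially encoded subunits was called by limma.

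In CA3 total RNA the same lists had 6 of 43, 3 of 17, 3 of 14 and 4 of 16 genes that rose, with 1 assembly factor that fell, against 14.2% and 1.34% of all genes. The assembly factors and carriers were near that share. Gabpa was at 0.78 and Ndufaf5 at 0.53. In CA1 polysome RNA, where 4.87% of all genes were higher and 3.46% lower, 2 of 43 assembly factors rose, a share near that of all genes. Of 14 regulators 2 rose, Gabpa at 0.46 and Nrf1 at 0.45. Of 16 cycle genes the isocitrate dehydrogenase genes Idh3a (-0.44) and Idh3b (-0.40) fell. The unblocked ratio fell in CA1 for 1 of 43 assembly factors, 2 of 17 carriers, 2 of 14 regulators and 4 of 16 cycle genes, against 3.41% of all genes. The share of assembly factors was not above that of all genes. Ndufaf5 was at -0.98, Cycs at -0.625, Tfam at -0.74 and Dld at -0.91.

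Markers of cell types also differed between conditions. In CA1 total RNA 5 of 8 astrocyte markers rose, and the list's summed intensities were 4410 to 4570 in NIC and 5640 to 6410 in 8R. For microglia 3 of 8 rose, with sums of 444 to 488 in NIC and 532 to 605 in 8R. Sums cover every measured marker of a list, tested or not (10 for microglia and 9 for CA1 pyramidal). Of 8 neuron markers 3 fell, with sums of 9880 to 10400 in NIC and 8660 to 10200 in 8R, and 3 of 8 CA1 pyramidal markers fell (1500 to 1660 against 1140 to 1850), where 20.1% of all genes rose and 6.15% fell. In CA1 polysome RNA 5 of 8 neuron markers fell, with sums of 12600 to 13500 in NIC and 10400 to 11600 in 8R. There 3 of 8 microglia and 2 of 8 astrocyte markers rose, against 4.87% higher and 3.46% lower of all genes. In CA3 total RNA 2 of 8 astrocyte, 2 of 8 microglia, 2 of 8 oligodendrocyte and 2 of 6 interneuron markers rose, and 1 of 8 neuron markers rose and 1 fell, against 14.2% and 1.34% of all genes. None of these markers was at 0 on any array, and their part in the members' changes was not tested.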

How the data were processed

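The deposited table holds linear intensities of 36685 probe sets on Affymetrix Rat Gene 2.0 arrays, made with PLIER and Affymetrix Expression Console per the submitters' processing notes. The authors' background correction and scaling were not given in the sources used here. Of the probe sets, 18511 carry 1 gene symbol in the platform annotation, 575 several and 17599 none. No single member was named from a probe set with several symbols, which left out 8 that hold a member's symbol. For 5 members with several probe sets the brightest was used.

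Intensities were used as log2(intensity + 16), and genes whose mean lay below the 30th percentile (log2 5.39) were left out. Tests were two-sided, from limma 3.58.1 in R 4.3.3 (lmFit and eBayes with a trend, 8 group means, 19 residual degrees of freedom, and a median of 10.1 prior degrees of freedom), with Benjamini-Hochberg adjustment over all genes. The number of arrays limits the precision. In simulated data for 8R against NIC in CA1 total RNA, with 12716 genes, the fit recovered 65% of genes changed by 0.5 (log2) and 99% of those changed by 1. Of genes changed by 0.5, it recovered 23% in CA1 and 14% in CA3 for the ratio changes. For the differences between the CA1 and CA3 responses it recovered 21% in total and 19% in polysome RNA. In each simulation 100 genes were changed by each amount, and arrays varied independently. In the data, 20.1% of genes rose and 6.15% fell in CA1 total RNA, and 8R arrays of a pool deviated together. Recovery in the data can therefore differ from these rates.

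Array codes carry pool numbers, and total and polysome RNA of a pool came from the same supernatant. Same-numbered 8R arrays deviated together (r from 0.28 to 0.77 between total and polysome RNA, 7 of 7 pairs over 0.1, and 0.12 to 0.78 between regions, 7 of 7). Control arrays did not (r from -0.04 to 0.22, 1 of 6 pairs, and -0.02 to 0.10, 0 of 6), so for them the pairing rests on the codes alone. The 3 arrays of 8R CA1 polysome RNA are pools 1, 3 and 4. The design without a block was kept as the main one, and the block is an alternative.

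Members named in a comparison were, in each complex, the 2 called members with the largest difference in each direction, together with fixed subunits (among them Ndufv1, Ndufs1, Sdha to Sdhd, Uqcrfs1, Cox4i1, Cox8a, Atp5f1b and Atp5mc1). Others, such as Ndufs5, were named after their values were seen. Genes of other lists were the 3 called with the largest absolute difference. Members, lists and settings, leaving out pool 4 among them, were chosen with earlier results of these data known. Alternatives were quantile normalization, arrays shifted to 1 median, other pseudocounts, no filter, the mean of a gene's probe sets, only the groups compared, array weights, pool as a random or fixed block, leaving out pool 4 of 8R, and each array left out in turn. The block with quantile normalization and the block without pool 4 were added after seeing the data.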

Additional observations from a re-analysis of the deposited data

Results flagged for a closer look

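The 8R arrays of pool 4 stood apart in the members. Their median deviation from the controls was the farthest array of its group for all members in CA3 polysome RNA (-0.27) and CA3 total RNA (-0.017), for complex I in CA3 polysome RNA (-0.286) and for complex III in CA1 total RNA (-0.102) and CA3 polysome RNA (-0.377). In each case the gap to the next array, over the group's range, passed Dixon's 95% critical value for 4 arrays. Chance passes this value in about 1 of 20 independent groups, and 5 of 18 sets examined did so. Of 246 combinations of a member and a group of 4 arrays, 34 passed, and in 32 the array was that of pool 4. The sets overlap, and sets and members were read from the same arrays. These counts are therefore not independent and cannot be set against that rate. Among members named in the text, Ndufb6 in CA3 total RNA was at 194.7 on the pool 4 array and at 229.2 to 236.0 on the others. Over all genes the pool 4 arrays did not stand apart in their medians.

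The change of Ndufb9 after reperfusion in CA1 differed between polysome and total RNA, by -0.50 on the log2 scale in a test of that difference (limma adjusted p = 0.033). The call was lost with quantile normalization (-0.37, limma adjusted p = 0.0761) and when any 1 of 6 arrays was left out.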

How the results depend on the processing

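All values here are numbers of members called out of 82, or of 90 without the filter on dim genes. With quantile normalization 2 were called in CA1 polysome RNA after reperfusion (main value 1), 3 in CA3 total RNA (5), and 8 and 6 between control regions in total (4) and polysome RNA (2). With arrays shifted to 1 median the counts were 15 in CA1 total RNA (23), 2 in CA3 total RNA, 1 between control regions in total RNA and 27 for polysome against total RNA in CA3 (42). Without the filter 2 were called between control regions in total RNA. With only the groups compared in the fit, 0 were called in CA1 polysome RNA, and 25 and 7 between control regions in total and polysome RNA. Array weights gave 3 in CA1 polysome, 37 in CA1 total and 39 in CA3 total RNA, 20 and 4 between control regions, and 14 and 19 (main values 1 and 0) for the ratio change in CA1 and CA3. Without the 8R arrays of pool 4 these 7 counts were 6, 50, 36, 23, 4, 13 and 15. In that fit 41.8% of all genes were higher and 1.09% lower between control regions in polysome RNA. For the ratio changes 7.35% of all genes fell and 1.23% rose in CA1, and 7.22% and 2.67% in CA3. The share of all genes called also moved. With array weights it was 17.3%, 37.6%, 37.3%, 12%, 45.3%, 12.2% and 17.3% for those 7 comparisons, against 8.33%, 26.3%, 15.5%, 3.47%, 28.4%, 3.82% and 0.165% in the main fit. With shifted arrays it was 24.1%, 11.3%, 2.97% and 40.1% in the order given, and with only the groups compared 3.55%, 9.87% and 43.6%. Under array weights the members called were 2 higher and 1 lower, 34 and 3, 33 and 6, 0 and 20, 4 and 0, 1 and 13, and 3 and 16. The cause of these differences was not tested.

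With pool as a random block (consensus correlation 0.268) the counts were 11 in CA3 total RNA, 15 and 4 between control regions and 19 and 11 for the ratio changes. A share of all genes is given above for the first of these only, so the others are not shown to be particular to the members. With pool as a fixed block they were 25 and 6 between regions and 32 and 26 for the ratio changes. The block with quantile normalization gave 25 and 32 between regions (all lower but 1 in polysome RNA), 15 and 11 for the ratio changes and 54 for polysome against total RNA in CA1 (31). Of all genes, 28.2% were then higher and 16.1% lower in polysome RNA of CA1, and 7.45% and 4.88% between regions in total RNA. The block without pool 4 gave 19 and 22 for the ratio changes. The other blocked counts stayed within 1.5 times the main count.

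With 1 array left out in turn, counts ran from 9 to 32 in CA1 total RNA, 1 to 2 in CA1 polysome RNA, 1 to 18 in CA3 total RNA, 26 to 30 and 31 to 37 for polysome against total RNA in CA1 and CA3, 0 to 12 and 0 to 7 for the ratio changes, 1 to 4 and 2 to 3 between control regions in total and polysome RNA, and stayed at 0 in CA3 polysome RNA and for the differences between responses. The share of all genes called then ran from 17.4% to 26.7% in CA1 total RNA, 7.68% to 23.7% in CA3 total RNA, 0.244% to 7.66% and 0.0236% to 8.05% for the ratio changes, and 2.06% to 2.46% and 16.3% to 22.3% between control regions. Over 51 named results, 556 of 587 values under other settings kept the call, 31 lost it with the same direction and 0 reversed. With 1 array left out, 258 of 325 kept it, 67 lost it and 0 reversed. No limit for dim members can be given beyond their being below the intensity filter.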
